A study of Felis catus with 12 samples.

Results

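Genes that mark adipocytes or coat the lipid droplet were followed in left ventricular free wall RNA from 12 cats. The 9 genes were chosen by symbol and are PLIN1, PLIN4, ADIPOQ, FABP4, LPL, CFD, CIDEC, LEP and PPARG. Of these, 8 were analysed among the 30785 genes of the deposited table, and FABP4 was not analysed here. Cardiac tissue was taken after death, and mRNA selected from its total RNA was read directly as RNA on nanopores, with a single library from each cat. The labels group the libraries only by flow cell, with 4 libraries on each of 3 flow cells. Flow cell PAK20671 held cats 11, 23, 30 and 31, flow cell PAM73681 held cats 10, 15, 35 and 36, and flow cell PAM73696 held cats 37 and 38 and the libraries labelled as cats 22 and 29. The last 2 numbers are not in the study's list of sequenced cats, so these libraries entered the comparison of flow cells and no comparison with a trait. Of the 10 listed cats, 6 died with congestive heart failure (HF), 3 had arterial thromboembolism (ATE) and 1 had no known cardiac death. These outcomes are not in the sample labels and were not used as groups. Any heart disease had arisen naturally, and no treatment was part of the design.

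White adipocytes store triglyceride in a single large droplet. PLIN1 and CIDEC proteins sit on that droplet, where they restrain lipolysis and help droplets fuse, and PLIN4 coats small new droplets. ADIPOQ, LEP and CFD encode the secreted proteins adiponectin, leptin and adipsin. PPARG is the master transcription factor of adipocyte differentiation, and LPL releases fatty acids from circulating lipoproteins. LPL is not particular to adipocytes, because cardiomyocytes also make it, and CFD is made by other cells as well. In the heart, adipocytes lie mostly beneath the epicardium.

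Depth ranged from 789257 reads on genes (cat 23) to 2263110 (cat 11), and 1 read was worth between 0.483 and 1.43 of the deposited unit, which is reads divided by a size factor of the library. The 7 cardiomyocyte markers analysed took from 9.85% to 15.3% of all reads. Of the 5 markers of the epicardial surface analysed, KRT19, LRRN4 and UPK1B had no read in any library, UPK3B had at most 12 reads, and WT1 had 2 to 22 reads and was read in all 12 libraries. The 8 adipocyte genes together had 1510 of 15753626 reads, of which LPL made up 74.6%. Beyond these shares and counts of reads, differences in level between genes were not tested.

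The genes most particular to adipocytes were close to the limit of detection. ADIPOQ was read in 3 of 12 libraries, with 4 reads in cat 10, 1 read in cat 35 and 1 read in cat 31. CIDEC was read in 1 library, with 2 reads in cat 35. LEP was read in 6 libraries, with 4 reads in cat 11, 3 in cat 35 and 1 each in cats 15, 29, 30 and 31. No library therefore held more than 4 reads of any of these 3 genes. Where ADIPOQ was not read, a count of 0 allows a level of up to 1.33 to 3.80 CPM (reads scaled to the library total), depending on the depth of the library and covering counting error only. Its absence from the other 9 libraries was thus not distinguishable from a low level. In bulk tissue, fewer adipocytes and less RNA per adipocyte cannot be told apart.

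PLIN1, the droplet gate of the adipocyte, was read in every library but never by more than 14 reads. Its values were 1.45, 1.34, 4.21 and 0.798 on flow cell PAK20671 (cats 11, 23, 30 and 31), 7.89, 4.08, 5.51 and 8.90 on PAM73681 (cats 10, 15, 35 and 36), and 2.86, 10.3, 4.43 and 1.35 on PAM73696 (cats 37, 38, 29 and 22). The highest values were those of cats 38, 36 and 10, and the range of each flow cell reached into that of another. Summed over PLIN1, ADIPOQ, CIDEC and LEP, cats 10, 35 and 38 had the most reads, with 9.73, 9.04 and 8.58 CPM. Cats 22, 23 and 31 had the fewest, with 1.14, 1.27 and 1.89 CPM.

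LPL had 51 to 154 reads per library and was the only one of the 8 genes with at least 10 reads in all 12 libraries. In the same order of cats, its values were 51.2, 102, 80.8 and 75.8 on PAK20671, 134, 81.7, 72.5 and 97.1 on PAM73681, and 116, 113, 97.5 and 68.9 on PAM73696. The highest library exceeded the lowest by 2.62-fold, and the flow cells overlapped. The coefficient of variation between libraries was 25.7%, against 10.8% from the counting error of the reads alone.

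CFD, which encodes the complement protease adipsin, had the widest spread between cats of the 4 adipocyte genes read in every library, the others being LPL, PLIN4 and PLIN1. Its values were 12.1, 1.34, 4.21 and 6.38 on PAK20671, 6.764, 42.2, 26.8 and 5.34 on PAM73681, and 5.72, 23.5, 12.2 and 5.401 on PAM73696. Cats 15, 35 and 38 stood highest, with 31, 34 and 32 reads, and cat 23 lowest with 1 read. The coefficient of variation was 95.8%, against 28.2% from counting error. Cat 38 also had the highest PLIN1 value and cat 15 the highest PLIN4 value.

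PLIN4, a coat protein of small droplets, had 3 to 15 reads. Its values were 1.45, 8.06, 11.8 and 5.58 on PAK20671, 11.3, 20.4, 10.2 and 8.90 on PAM73681, and 14.3, 8.09, 6.65 and 4.05 on PAM73696. Cat 15 was highest and cat 11 lowest, with a coefficient of variation of 53.9% against 34.5% from counting error.

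PPARG had 0 to 10 reads. Its values were 4.83, 2.69, 6.73 and 2.39 on PAK20671, 2.25, 0, 2.36 and 0 on PAM73681, and 1.43, 0, 2.22 and 0 on PAM73696. All libraries of PAK20671 were above all others in the deposited value, but the nearest pair, cats 31 and 35, each had 3 reads. Such a gap in the deposited value, with PAK20671 above the others, was found for 1.02% of the 18070 genes with a read. Scaled to the library total, PPARG was at 1.89 CPM in cat 31 and 2.09 CPM in cat 35, so PAK20671 then overlapped the others.

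**Figure D1:**
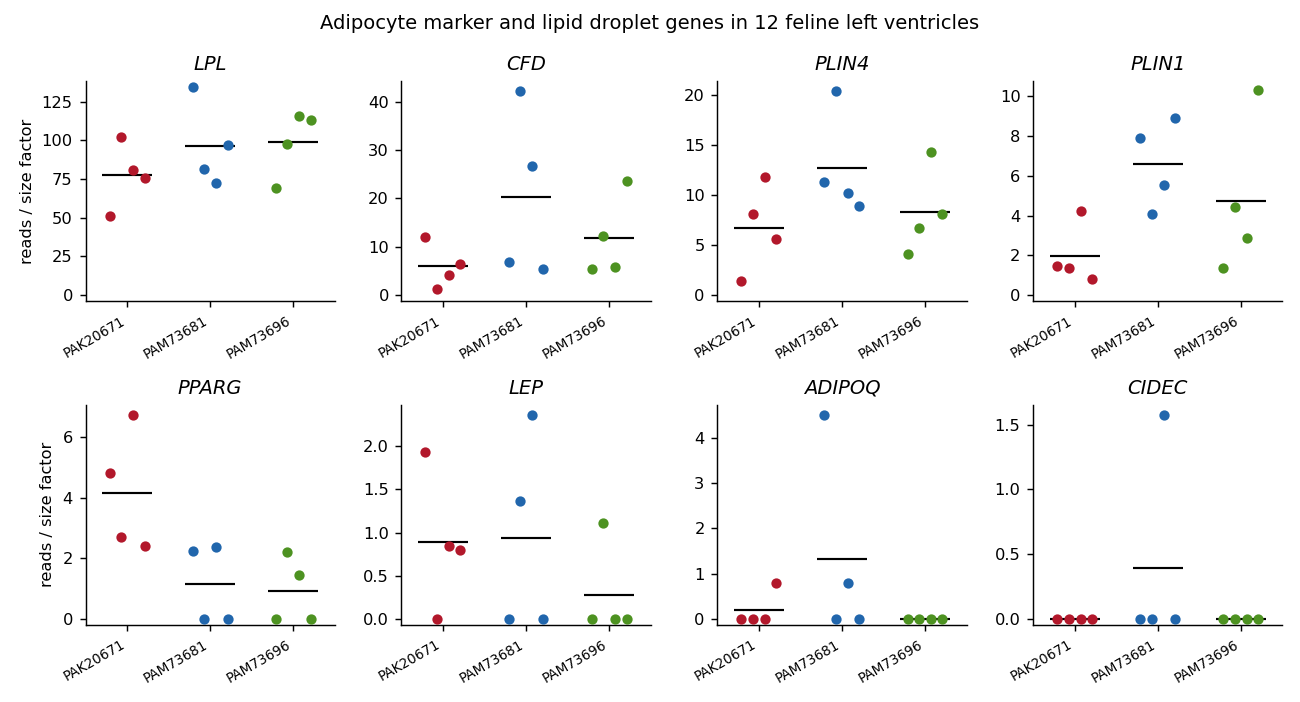
Deposited value (reads divided by the size factor of the library) of 8 adipocyte marker and lipid droplet genes, with 1 point per library and a line at the mean of the 4 libraries of each flow cell. LPL lay between 51.2 and 134, whereas ADIPOQ and CIDEC were at 0 in 9 and 11 libraries. In this unit, but not in CPM, PPARG was higher in the 4 libraries of PAK20671 than in all others.

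A gene was tested where 3 or more of the 10 listed cats had 10 or more reads of it, and 8715 genes met this limit. LPL, CFD and PLIN4 passed, while PLIN1, PPARG, LEP, ADIPOQ and CIDEC stayed under this limit and got no adjusted p-value in that set. Other tested genes were ranked by their likeness to each of the 3 over the 12 libraries, by Pearson's r of log2(value + 1). LPL, CFD and PLIN4 were left out of this ranking, so none of them could be named beside another. The most alike genes are given as a description only. For PLIN4 they were YPEL3 (r = 0.939), CRBN (r = 0.888) and SYPL1 (r = 0.886). For LPL they were CCBE1 (r = 0.874) and the unnamed loci LOC101086514 (r = 0.869) and LOC109494831 (r = 0.867). For CFD they were NT5DC1 (r = 0.880), PRPF31 (r = 0.866) and TOMM40L (r = 0.865).

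The study measured the share of tissue area taken by adipocytes on a stained whole section of the ventricles, next to the free wall tissue used for RNA. It found a larger share in the right ventricle than in the remaining heart, and the right ventricle was not part of the RNA samples. Whether adipocyte genes followed that percentage was asked over the 10 listed cats, with Spearman's rho and a two-sided permutation test. No tested gene passed an adjusted p of 0.05 (0 of 8715, 0.0%), and 269 genes (3.09%) had an unadjusted p under 0.05. The smallest p possible with the 100000 draws of this permutation was 1e-05. That is too large for a single gene among 8715 to pass, whatever its rho. A slope on the percentage in limma likewise called 0 genes (333 genes, 3.82%, at an unadjusted p under 0.05), as did edgeR (326) and DESeq2 (361). The power of these tests was limited. In simulated data, where 200 genes followed the percentage with a log2 change of 3 from its lowest to its highest value, limma recovered 49.0% of them, edgeR 56.0%, DESeq2 69.5% and Spearman's test 0.0%.

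LPL had a rho of 0.236 (permutation p = 0.512) and a Pearson's r of 0.143 (permutation p = 0.687). CFD had a rho of -0.273 (permutation p = 0.452) and an r of -0.190 (permutation p = 0.599), and PLIN4 a rho of 0.0424 (permutation p = 0.918) and an r of 0.125 (permutation p = 0.709). All 3 had an adjusted p of 1.0 in Spearman's test. The slopes on the log2 scale per percentage point were 0.02 with a standard error (SE) of 0.0512 for LPL, -0.09 with an SE of 0.132 for CFD and 0.04 with an SE of 0.0984 for PLIN4. Each slope was smaller than its own error. PLIN1 had a rho of -0.00606 (permutation p = 1.0) and an r of 0.0935 (permutation p = 0.801), and PPARG a rho of -0.325 (permutation p = 0.360) and an r of -0.505 (permutation p = 0.134). Without the 2 cats farthest from the median percentage (cats 31 and 36), r was 0.288 for LPL, 0.0173 for CFD, 0.422 for PLIN4, 0.0150 for PLIN1 and -0.418 for PPARG, and no exact permutation p was under 0.05.

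ADIPOQ, CIDEC and LEP had 0 to 4 reads per library, too few to show whether they followed the percentage. Cat 35 had the lowest adipocyte percentage of the 10 cats, and its library had 1 read of ADIPOQ, 2 of CIDEC and 3 of LEP. No other library had a read of CIDEC. Cat 31, which was 9th in rising order, had 1 read each of ADIPOQ and LEP. Cat 36 had the highest percentage and was the cat recorded as overweight, and its library had no read of ADIPOQ, CIDEC, LEP or PPARG, although it had 10 reads of PLIN1. Cats 11 and 30, recorded as underweight, had 4 reads and 1 read of LEP.

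Within flow cells, PPARG tended to be lower where the percentage was higher, but with only 0 to 10 reads per library. With each flow cell centred on its mean rank, rho was -0.791 (exact permutation p = 0.0156) and r was -0.773 (exact permutation p = 0.0174). On PAM73681 the values were 2.36, 2.25, 0 and 0 in cats 35, 10, 15 and 36, in rising order of the percentage. These came from 3, 2, 0 and 0 reads. A count of 0 allows up to 3.08 CPM in cat 15 and 1.71 CPM in cat 36, against 2.09 and 1.77 CPM in cats 35 and 10. On PAK20671 the values were 4.83, 6.73, 2.69 and 2.39 in cats 11, 30, 23 and 31, in the same order, from 10, 8, 2 and 3 reads. On PAM73696 they were 1.43 in cat 37, from 1 read, and 0 in cat 38. An unadjusted p under 0.05 in this setting was found for 4.18% of tested genes, and PPARG had too few reads to be among them or to get an adjusted p. Within flow cells, rho was 0.504 for LPL (exact permutation p = 0.262), -0.405 for CFD (exact permutation p = 0.349), 0.0240 for PLIN4 (exact permutation p = 0.962) and -0.0280 for PLIN1 (exact permutation p = 0.954). The adipocyte percentage had been measured in 2 staining batches with separate classifiers, and 5 of the 10 cats belonged to each. Within staining batches, rho was 0.0665 for LPL, -0.0619 for CFD, -0.247 for PLIN4, -0.137 for PLIN1 and -0.378 for PPARG, with exact permutation p-values of 0.918, 0.858, 0.560, 0.771 and 0.283.

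**Figure D2:**
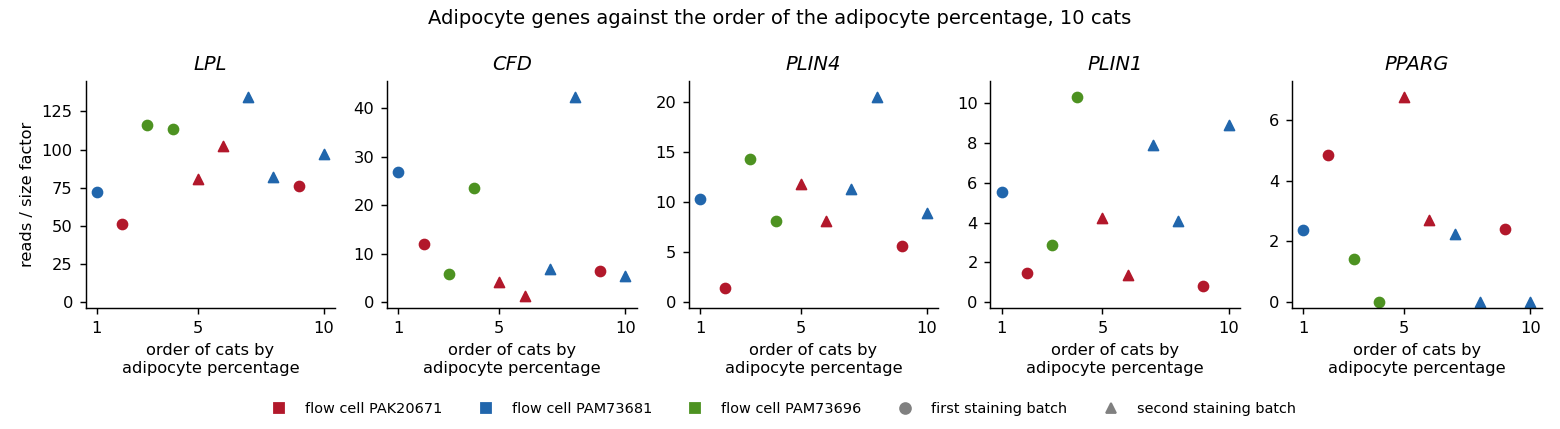
Deposited value (reads divided by the size factor) of 5 adipocyte genes against the order of the 10 listed cats by adipocyte percentage, from 1 (lowest) to 10 (highest), with colours for flow cells and shapes for staining batches. No gene rises steadily along the order, and PPARG is at 0 in cats 38, 15 and 36, which are 4th, 8th and 10th.

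Age and myocardial fibrosis, taken from the same list, were compared in the same way, giving 24 relations of 8 genes with 3 traits. Over all cats, no relation had an unadjusted or adjusted p under 0.05. Only LPL, CFD and PLIN4 had an adjusted p. CIDEC, read in 1 of the 10 listed cats, could not have reached an unadjusted p under 0.05. Over the 9 cats with an age, 0 of 8715 genes passed an adjusted p of 0.05 in Spearman's test (415 genes, 4.76%, at an unadjusted p under 0.05). PLIN4 had a rho of 0.617 (exact permutation p = 0.0857, adjusted p = 0.917) and an r of 0.572 (exact permutation p = 0.100). Within flow cells its rho was 0.857 (exact permutation p = 0.0104, adjusted p = 0.668), where 7.27% of genes had an unadjusted p under 0.05. That setting has 288 orders, too few for a single gene to pass an adjusted p of 0.05. Without the 2 cats farthest from the median age, its r was 0.433 (exact permutation p = 0.351). For LPL, CFD, PLIN1 and PPARG, rho with age lay between -0.133 (CFD) and 0.271 (PPARG).

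Myocardial fibrosis was known for 8 cats, over which 0 genes passed an adjusted p of 0.05 in Spearman's test (247 genes, 2.83%, at an unadjusted p under 0.05). The 40320 orders of 8 cats are too few for a single gene among 8715 to pass, whatever its rho. PLIN1 had a rho of -0.619 (exact permutation p = 0.115) and an r of -0.549 (exact permutation p = 0.155). Without the 2 cats farthest from the median, its r was -0.252 (exact permutation p = 0.665). For LPL, CFD, PLIN4 and PPARG, rho with fibrosis lay between -0.238 (PLIN4) and 0.214 (LPL).

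Flow cell PAK20671 was compared with the others in limma, a contrast chosen because earlier results of these data had shown many genes to differ there. Of 8715 tested genes, 446 (5.12%) differed at an adjusted p under 0.05, of which 141 were higher and 305 lower on PAK20671. Since the flow cells held different cats, a difference between cats and one between sequencing runs cannot be told apart. None of the adipocyte genes was among those called. CFD averaged 6.00 ± 4.54 (SD, n = 4) on PAK20671 and 15.99 ± 13.58 (SD, n = 8) on the others, a log2 difference of -1.15 with an SE of 0.585 (limma, adjusted p = 0.267). PLIN4 averaged 6.72 ± 4.34 (SD, n = 4) and 10.5 ± 5.05 (SD, n = 8), a log2 difference of -0.69 with an SE of 0.470 (limma, adjusted p = 0.415). LPL averaged 77.5 ± 20.9 (SD, n = 4) and 97.6 ± 22.8 (SD, n = 8), a log2 difference of -0.34 with an SE of 0.232 (limma, adjusted p = 0.417), which turned to 0.05 with reads not scaled for depth.

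For genes under the limit on reads, the same model was fitted over all 18070 genes with a read, of which 317 (1.75%) were called. PLIN1 averaged 1.95 ± 1.53 (SD, n = 4) on PAK20671 and 5.667 ± 3.103 (SD, n = 8) on the others, with a log2 difference of -1.14 and an SE of 0.529 (limma, adjusted p = 0.338). PPARG averaged 4.16 ± 2.03 (SD, n = 4) and 1.03 ± 1.14 (SD, n = 8), with a log2 difference of 1.48 and an SE of 0.513 (limma, adjusted p = 0.161). The log2 differences of LEP, ADIPOQ and CIDEC were 0.31, -0.20 and -0.17, each smaller than its SE of 0.401, 0.400 and 0.242. Differences of log2(value + 1) understate the change of genes with so few reads.

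**Figure D3:**
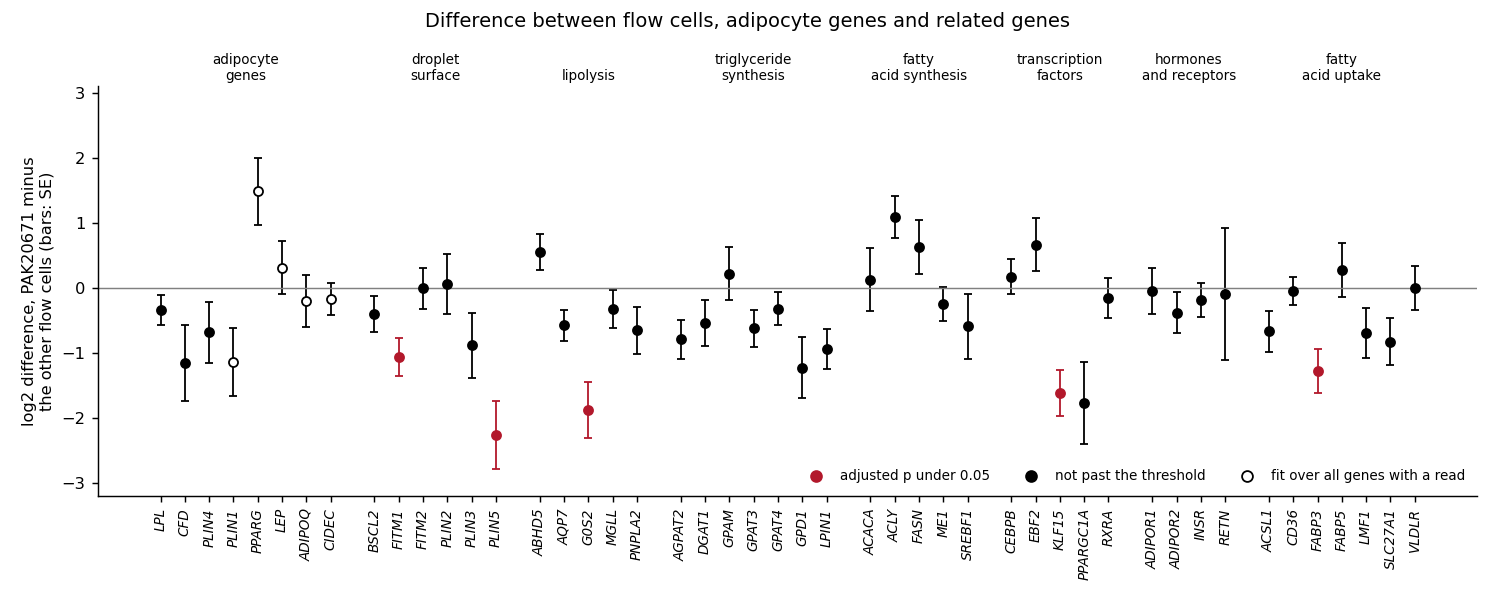
Difference of log2(value + 1) between flow cell PAK20671 and the other flow cells, with bars of 1 SE, for the 8 adipocyte genes and 39 tested genes of lipid handling in 7 lists. Red points had an adjusted p under 0.05 in limma, and open points come from the fit over all genes with a read. The 5 red genes (FITM1, PLIN5, G0S2, KLF15 and FABP3) lie below 0, and no adipocyte gene is red.

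Other genes of lipid handling included some that did differ between flow cells. In 8 lists of related genes, 39 of 60 genes passed the limit on reads, 5 were lower on PAK20671 and 0 were higher, against 3.5% of all tested genes that were lower and 1.62% that were higher. Their median log2 difference was -0.38, against 0.03 for all tested genes. No gene of these lists was called for the adipocyte percentage (3 of 39 had an unadjusted p under 0.05 in Spearman's test), and their median rho with it was -0.0424, against 0.00606 for all tested genes.

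Among other proteins of the droplet surface, 6 of 8 genes were tested, and 2 were lower on PAK20671. PLIN5, the perilipin of oxidative tissues that ties droplets to mitochondria, had values of 7.24, 89.99, 62.3 and 7.98 on PAK20671 (cats 11, 23, 30 and 31), 159, 138, 109 and 78.3 on PAM73681 (cats 10, 15, 35 and 36), and 119, 152, 184 and 79.7 on PAM73696 (cats 37, 38, 29 and 22). Its log2 difference was -2.27 with an SE of 0.527 (limma, adjusted p = 0.0210), and cats 11 and 31 were by far the lowest. FITM1, which partitions triglyceride into droplets in muscle, differed by -1.06 with an SE of 0.296 (limma, adjusted p = 0.0468). PLIN2, the perilipin found on droplets of most cells, was covered by 204 to 2431 reads and differed by 0.06 with an SE of 0.467 (limma, adjusted p = 0.955). Its values were highest in cats 31 and 35, at 1700 and 1504, and lowest in cat 37 at 292, so it did not follow PLIN5. PLIN3, a perilipin that moves between cytosol and droplets, had 13 to 111 reads and differed by -0.89 with an SE of 0.5003 (limma, adjusted p = 0.319).

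**Figure D4:**
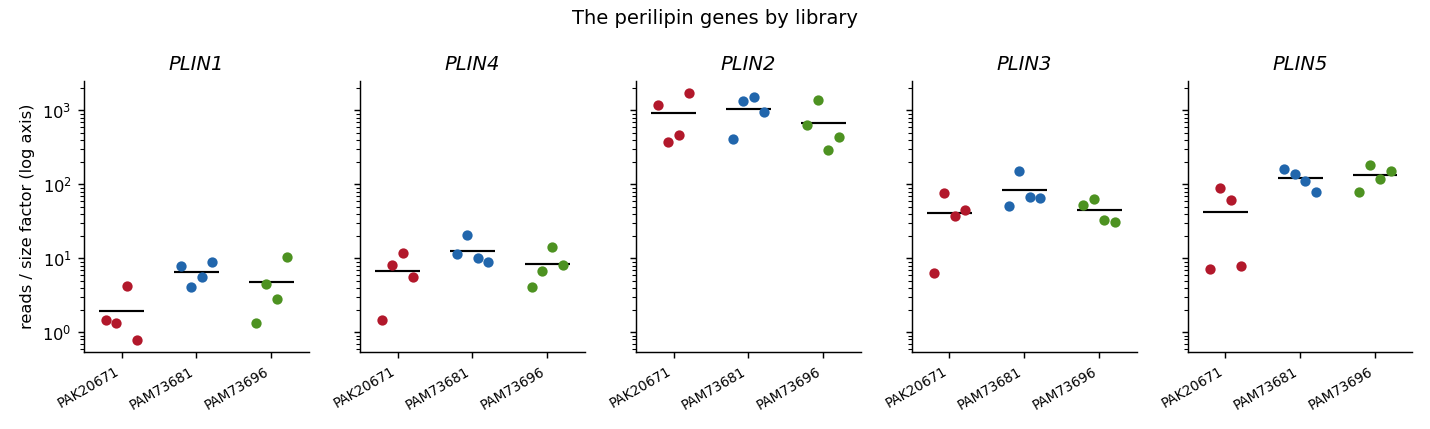
Deposited value (reads divided by the size factor, log axis) of the 5 perilipin genes, with 1 point per library and a line at the mean of each flow cell. PLIN5 was at 7.24 and 7.98 in cats 11 and 31 of PAK20671 and at 78.3 or above on the other flow cells, whereas PLIN2 overlapped between all 3.

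In lipolysis, 5 of 6 genes were tested and 1 was called. G0S2, the inhibitor of adipose triglyceride lipase, was lower on PAK20671 by a log2 difference of -1.88 with an SE of 0.434 (limma, adjusted p = 0.0205). PNPLA2, which encodes that lipase, differed by -0.65 with an SE of 0.361 (limma, adjusted p = 0.309). LIPE, the hormone-sensitive lipase of adipocytes, had 1 to 9 reads and was not tested. In triglyceride synthesis 7 of 8 genes and in fatty acid synthesis 5 of 8 genes were tested, and none was called. The most reads in those lists were those of GPAT4, GPAT3 and AGPAT2 (log2 differences of -0.32, -0.62 and -0.79) and of ME1, ACLY and SREBF1 (-0.25, 1.09 and -0.59).

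Of the transcription factors, 5 of 9 were tested, and KLF15, a regulator of lipid metabolism in heart and fat, was lower on PAK20671 by a log2 difference of -1.62 with an SE of 0.352 (limma, adjusted p = 0.0161). CEBPA, the partner of PPARG in adipocytes, had at most 4 reads. Of hormones and receptors, 4 of 8 genes were tested and none was called, with log2 differences of -0.38 for ADIPOR2, -0.04 for ADIPOR1 and -0.19 for INSR. In fatty acid uptake 7 of 9 genes were tested, and FABP3, the fatty acid binding protein of heart muscle, was lower by a log2 difference of -1.28 with an SE of 0.339 (limma, adjusted p = 0.0377). GPIHBP1, which anchors LPL to capillaries, had at most 4 reads. Of the genes of brown and beige fat, none of the 4 analysed passed the limit. PRDM16 had at most 6 reads and DIO2 at most 12, and UCP1 and ELOVL3 had no read in any library.

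The calls of these 5 genes changed with the libraries and the tool, while all 5 log2 differences stayed below 0 in each of 19 alternatives. Without cat 11, G0S2 alone was lower (limma, adjusted p = 0.0463), and the log2 differences of PLIN5, FITM1, KLF15 and FABP3 were -1.73, -0.95, -1.23 and -1.06. Without cat 31 none was called, at -1.77 for PLIN5, -1.07 for FITM1, -1.44 for G0S2, -1.58 for KLF15 and -1.12 for FABP3. Over all tested genes, 51 were called without cat 11 and 129 without cat 31. FITM1 was also lost without cat 10, 15, 23, 29, 36, 37 or 38, and FABP3 without cat 15, 22 or 38. Without the libraries labelled as cats 22 and 29, 4 genes were lower. With edgeR, 2 of the 39 genes were lower (G0S2 and KLF15). With DESeq2, these 5 were lower and ACLY was higher, and with reads not scaled for depth PLIN5 alone was lower and the median of the 39 genes was 0.01.

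Some markers of other cell types also differed on flow cell PAK20671, where 3.5% of all tested genes were lower and 1.62% higher. Of 7 cardiomyocyte markers, TNNT2, TNNI3, MYL3 and MB were lower and 0 were higher, with a list median of -1.05 on the log2 scale. ACTC1, MYL2 and RYR2 were not called, at 0.59, -0.16 and -0.51. The summed values of the 7 markers lay between 108865 and 179755 on PAK20671 and between 111636 and 232577 on the other flow cells. Of 6 fibroblast markers, COL1A1 (log2 difference of 2.63) and COL3A1 (1.84) were higher and 0 were lower, and the summed values were 1121 to 3193 against 276 to 1757. None of 10 endothelial markers, 8 macrophage markers or the 1 tested epicardial surface marker was called. The most-read of these differed on the log2 scale by -0.53 (VWF), 0.31 (CDH5), -0.58 (EGFL7), 0.40 (C1QB), 0.33 (C1QA), 1.04 (CD163) and -0.38 (WT1). Without cat 11, COL1A1 was called and the other 5 markers were not, with log2 differences of -0.96 for TNNT2, -0.94 for MYL3, -1.45 for TNNI3, -0.88 for MB and 1.80 for COL3A1. Without cat 31, COL1A1, TNNT2 and MYL3 were called. The part of cell composition in the differences of PLIN5, FITM1, G0S2, KLF15 and FABP3 was not tested.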

How the data were processed

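Direct RNA libraries (Oxford Nanopore) of left ventricular free wall from 12 cats were used. Per the labels and the study's methods, the authors called bases, kept reads above a quality limit, aligned these to the felCat9 genome with minimap2 and obtained gene counts from featureCounts. The deposited signal values are these reads divided by a size factor of each library. Every value (100%) came out as a whole number of reads within a relative tolerance of 1e-06, so whole reads could be recovered. Tests were made on the deposited values, as log2(value + 1) in limma with an intensity trend, or as Spearman's rho with permutation of cats (exact under 10 cats, otherwise 100000 draws). Adjusted p-values are Benjamini-Hochberg values over all tested genes. edgeR and DESeq2 on recovered reads, TMM scaling, pseudocounts of 0.5 and 2, other filters, unscaled reads and each library left out were alternatives.

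The 9 genes, the lists and the comparison of flow cells were chosen with earlier results of these data known. Named from the other lists were genes past the test or, where none was, those with the most reads; others were singled out after their values were seen. For each of the 3 tested genes, the 3 most alike genes are named. Adipocyte percentage, age, fibrosis and body condition came from the study's list of cats. The column headers, which exchange cats 10 and 15 against the column numbers in the labels, were followed. With 1 library per cat, p-values rest on the spread between libraries, which joins cats, library preparation and counting error. They do not measure the spread between flow cells, because PAK20671 was 1 flow cell. Intervals for counts of 0 use 3 reads. Tests were tried on simulated data with 200 of 8715 genes changed by 3 (log2), of which limma recovered 96.5% between flow cells. The limma differences of the adipocyte genes between flow cells were smaller, and recovery of changes of their size was not tested. Gene coordinates and sequences were not used here. Model fits used limma 3.58.1, DESeq2 1.42.0 and edgeR 4.0.16 in R 4.3.3. Correlations used scipy 1.17.1 and numpy 2.4.6 in Python 3.11.15.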

Additional observations from a re-analysis of the deposited data

Results flagged for a closer look

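Within flow cells, 45 groups of 4 values were examined for a library far from the other 3, and 4 were found. Where 3 values are 0, any read in the remaining library is flagged, as for ADIPOQ, CIDEC and LEP below. The rate of about 1 in 20 groups flagged by chance therefore does not apply to these. ADIPOQ on flow cell PAK20671 had a value of 0.798 in cat 31, from 1 read, and 0 in the others. CIDEC on PAM73681 had a value of 1.58 in cat 35, from 2 reads, and 0 in the others. LEP on PAM73696 had a value of 1.11 in the library labelled as cat 29, from 1 read, and 0 in the others. FABP3 on PAM73696 had a value of 21255 in the library labelled as cat 29, from 19177 reads, against 6213 to 8506 in the other 3. Fewer than 3 reads lie behind each of the first 3 values.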

How the results depend on the processing

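Of PLIN1, PLIN4, LPL, CFD and PPARG, none was called between flow cells under any alternative (DESeq2 gave no adjusted p for PPARG). No trait called any gene, apart from 1 gene (ZNF654) for the adipocyte percentage without cat 11 (0 to 1 genes over the cats left out). For fibrosis, and within flow cells or staining batches, permutation gave too few orders for a single gene to be called. The same held for the adipocyte percentage over 10 or 12 libraries, where the smallest p possible was 1e-05. Without cat 11, the 9 remaining cats were permuted exactly, with a smallest possible p of 2.76e-06. The call of ZNF654 is therefore not comparable with the run over 10 cats. The number of genes between flow cells was 446, and it was 829 with DESeq2, 435 with edgeR, 80 with unscaled reads (chosen after seeing the data) and 51 to 501 with each library left out, lowest without cat 11, then 129 without cat 31 and 295 without cat 15. With unscaled reads the split was 75 higher and 5 lower, against 141 and 305, and the median of all tested genes moved from 0.03 to 0.41 on the log2 scale. The cause was not tested. The log2 difference of LPL was 0.0523 with unscaled reads. For the adipocyte percentage, the direction of PLIN1 turned with Pearson's r (0.0935) and with the columns of cats 10 and 15 exchanged (0.0303, chosen after seeing the data). That of PLIN4 turned with unscaled reads (-0.00614), within staining batches (-0.247) and with the 2 unlisted libraries entered as cats 16 and 25 in either order (-0.203 and -0.175), where LPL came to 0.0 in 1 order. With age, PLIN1 turned within flow cells (0.0155) and LPL with unscaled reads (-0.517). With fibrosis, LPL turned with unscaled reads (-0.357) and CFD within flow cells (0.0761). With each cat left out, rho with the adipocyte percentage ran from -0.283 to 0.233 for PLIN1, -0.233 to 0.250 for PLIN4 and -0.0333 to 0.367 for LPL. With age it ran from -0.333 to 0.286 for PLIN1, -0.0952 to 0.333 for LPL, -0.452 to 0.190 for CFD and -0.0488 to 0.491 for PPARG. With fibrosis it ran from -0.643 to 0.0714 for PLIN4, 0.0 to 0.536 for LPL, -0.500 to 0.250 for CFD and -0.334 to 0.296 for PPARG. Of 295 values for PLIN1, PLIN4, LPL, CFD and PPARG, the 5 genes read in more than 5 of the 10 listed cats, 40 changed direction. PLIN4 with age had a rho of 0.762 without cat 23 (exact permutation p = 0.0368) and 0.738 without cat 36 (exact permutation p = 0.0458). No paired analysis was possible because the flow cells share no cat number. ADIPOQ, CIDEC and LEP had 0 to 4 reads per library, so changes in them were not detectable at this depth.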

Other observations

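Some genes near the adipocyte programme were read unevenly across libraries, and they were singled out after their values were seen. CIDEA, a droplet protein related to CIDEC, had 29 reads in cat 38 and 21 in cat 35, and at most 7 in any other library. DIO2, which activates thyroid hormone in brown fat, had 12 of its 21 reads in cat 35. LEPR, the leptin receptor, had 6 reads in cat 35 and 3 in cat 37, and none elsewhere. UPK3B, a marker of the epicardial surface, also had its most reads in cat 35, with 12 against at most 2 in the others, but WT1 of the same marker list had only 4 reads there. The library of cat 35 also stood apart in the summed value of 8 macrophage markers, at 1483 against 123 to 597 in the other 11 libraries. The part of this in the reads of these genes was not tested. THRSP, which promotes fatty acid synthesis, had 4 reads in cat 10, the library with 4 reads of ADIPOQ, and 1 read in cat 35. RETN, which encodes resistin, was read in 6 libraries, with 6 to 17 reads in cats 10, 11, 29, 31, 35 and 36, and not once in the other 6.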
